A study of Mus musculus with 4 samples.

Results

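Cyclins are the regulatory subunits of the cyclin-dependent kinases, and 10 cyclin genes of the 22367 protein-coding mouse genes with an annotated transcription start site (TSS) on a nuclear chromosome were examined for H3K4 signal at their promoters. They were chosen by name and with earlier results of these data known, and no measured value entered the rule. They are the D cyclins Ccnd1, Ccnd2 and Ccnd3, the E cyclins Ccne1 and Ccne2, the A cyclin Ccna2, the B cyclins Ccnb1 and Ccnb2, and Ccnc and Ccnh, whose proteins are subunits of the Mediator kinase module and of the kinase CAK/TFIIH. The study profiled chromatin of activated mouse splenic B cells labelled PA1-KO or PA1-WT by chromatin immunoprecipitation and sequencing, and PA1 is a small protein that associates with PTIP in the MLL3/MLL4 histone methyltransferase complexes. The data used here are 1 PA1-KO library and 1 PA1-WT library, both made with an antibody labelled only as H3K4. The other 2 of the 4 samples, which carry the antibody label H3K4me4, were not analysed here.

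The mice were 6 to 14 weeks old, and their B cells were purified from spleen by removing CD43-bearing cells on magnetic beads. The cells had 2 days of culture with 25 μg/ml LPS plus either 2.5 ng/ml anti-IgD-dextran or 5 ng/ml IL-4, and the labels do not say which of the 2 additions these libraries had. Native mononucleosomes were released with MNase before the precipitation. The labels give neither the methylation state recognised by the antibody nor the deleted part of PA1, the strain, the number of mice or whether deletion was limited to B cells. The purification is described for all samples alike, and whether both genotypes had the same second stimulus is not stated. With 1 library for each genotype there is no replicate spread and no test between genotypes, so every interval below covers counting error only.

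Methylation of H3 lysine 4 marks promoters and enhancers: the trimethyl form lies over the start of active and poised genes, and the monomethyl form lies over enhancers and the flanks of promoters. In a dividing B cell the D cyclins respond first to mitogens and, with CDK4 and CDK6, phosphorylate the retinoblastoma protein. The E cyclins with CDK2 carry the cell into S phase, cyclin A2 acts through S and G2, and the B cyclins with CDK1 drive mitosis. H3K4 signal reports on chromatin and is not a measure of transcription or of cyclin protein.

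The knockout library held 5260401 mapped reads and the wild-type library 5539549. All counts below are reads whose position, moved 75 bp toward the fragment centre, lay within 1 kb of a TSS, and every window has the same length. Levels are normalized RPM, that is, reads scaled to library size and then by a factor from all promoters with 50 or more reads (TMM, a trimmed mean of log ratios). Here 1 read is worth 0.198 RPM in the knockout and 0.173 RPM in the wild type. The call of higher or lower was given to promoters that differed by 1.5-fold or more, knockout over wild type, with a 95% interval that excluded 1. Over the 12186 promoters with 50 or more reads, 81 (0.665%) were higher by this rule and 597 (4.9%) were lower. B-cell markers carried high signal in both libraries, at 74.4 to 113 RPM in the knockout and 66.8 to 95.4 in the wild type for 6 of 6 genes. Of the defining markers of other blood cells, Cd3e, Cd4, Cd8a, Nkg7, Csf1r, Lyz2, Mpo, Elane and Hba-a1 had at most 3 reads in either library. Lck and Gata3 of the T and NK list, Cd14 and Itgam of the myeloid list and Klf1 of the erythroid list had more, at no more than 32.9 RPM, and their ratios ran from 0.788 (Cd14) to 1.48 (Itgam).

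The promoters of the E and B cyclins are printed because Ccne1 and Ccnb2 have the lowest and the highest ratio of the 10 genes, and each is shown with its class partner. Each line gives the 250 bases before the most upstream annotated TSS, 5′ to 3′ on the gene strand, from NCBIM37, the assembly called mm9. Capitals mark the CCAAT box (CCAAT, or ATTGG on the other strand) and the cell-cycle homology region (TTTGAA, on either strand), and these letters do not overlap each other here. The windows are chr7:38892554-38892803 on the minus strand for Ccne1, chr4:11118248-11118497 on the plus strand for Ccne2, chr13:101556526-101556775 on the minus strand for Ccnb1 and chr9:70269362-70269611 on the minus strand for Ccnb2.
Ccne1: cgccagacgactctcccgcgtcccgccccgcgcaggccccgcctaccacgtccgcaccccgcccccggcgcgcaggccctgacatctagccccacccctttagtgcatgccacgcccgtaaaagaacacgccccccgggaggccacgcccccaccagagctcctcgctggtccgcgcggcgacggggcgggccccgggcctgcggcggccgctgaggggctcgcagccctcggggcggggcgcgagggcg
Ccne2: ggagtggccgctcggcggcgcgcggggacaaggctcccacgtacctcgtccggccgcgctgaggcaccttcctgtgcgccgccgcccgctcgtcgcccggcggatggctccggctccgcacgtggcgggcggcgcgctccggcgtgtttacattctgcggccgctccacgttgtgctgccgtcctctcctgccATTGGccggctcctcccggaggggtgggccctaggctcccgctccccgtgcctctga
Ccnb1: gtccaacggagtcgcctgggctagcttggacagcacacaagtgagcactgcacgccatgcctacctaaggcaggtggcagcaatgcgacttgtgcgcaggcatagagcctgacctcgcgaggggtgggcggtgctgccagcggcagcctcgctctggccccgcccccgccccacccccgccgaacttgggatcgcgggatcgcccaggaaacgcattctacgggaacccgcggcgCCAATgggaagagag
Ccnb2: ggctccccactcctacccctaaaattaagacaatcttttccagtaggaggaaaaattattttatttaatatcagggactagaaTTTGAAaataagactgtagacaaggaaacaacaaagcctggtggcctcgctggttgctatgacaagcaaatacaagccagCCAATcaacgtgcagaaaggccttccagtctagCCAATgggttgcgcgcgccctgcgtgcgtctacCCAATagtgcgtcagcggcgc

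The E cyclin promoters are the richer in CpG, with 36 CpG each and a GC content of 78.8% for Ccne1 and 75.2% for Ccne2. The Ccnb2 promoter has 10 CpG and 47.6% GC, and that of Ccnb1 lies between them with 22 CpG and 67.2% GC. These values are for the printed windows only. At Ccne2 the start counted below lies 1246 bp downstream of the most upstream TSS, and the 1 kb around it holds 46.9% GC. Ccnb2 carries 3 CCAAT boxes, beginning 87, 54 and 21 bases before the TSS, and a TTTGAA 167 bases before it. Ccnb1 has 1 CCAAT, beginning 15 bases before its TSS, Ccne2 has 1 ATTGG, and Ccne1 has no match to either motif. Over the 22362 promoters with a complete window, 35% held a CCAAT box and 14.8% a TTTGAA on either strand. The E2F sites TTTCCCGC, TTTGGCGC, TTTCGCGC and TTTGCCGC were found in 2.15% of all promoters on either strand and in 0 of the 10 cyclin windows. A match is a string of letters and not a measured binding site.

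The D cyclins had lower or equal signal in the knockout library, and none of the 3 passed the 1.5-fold rule. Ccnd1 (chromosome 7, minus strand, TSS at 152124102 in mm9) had 64 reads in the knockout and 102 in the wild type, or 12.7 and 17.7 RPM, the lowest level of the 10 genes in both libraries. Its ratio was 0.716 (95% interval 0.515 to 0.988). Ccnd2, the cyclin D long associated with B-cell receptor signalling (chromosome 6, minus strand, TSS at 127101066), had 242 and 336 reads, and its ratio was 0.822 (0.694 to 0.973). Ccnd3 (chromosome 17, plus strand, TSS at 47642000) had 286 and 330 reads, giving a ratio of 0.989 (0.841 to 1.16). The differences between these 3 ratios did not exceed counting error: on the log2 scale Ccnd1 differed from Ccnd3 by -0.47 (-1.0 to 0.06), Ccnd2 from Ccnd3 by -0.27 (-0.61 to 0.07), and Ccnd1 from Ccnd2 by -0.20 (-0.74 to 0.33).

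Ccne1 was the only cyclin of the 10 past the rule, and its E-class partner Ccne2 gave a ratio above 1 at the same setting. Ccne1 (chromosome 7, minus strand, TSS at 38892521) had 105 reads in the knockout and 180 in the wild type, or 20.8 and 31.2 RPM. Its ratio of 0.666 (0.518 to 0.852) was only just past the limit of 0.667. Ccne2 (chromosome 4, plus strand, TSS at 11119744) had 234 and 236 reads, giving a ratio of 1.13 (0.940 to 1.36). The log2 ratio of Ccne1 was lower than that of Ccne2 by a difference of -0.76 (-1.22 to -0.32), the only pair within a class whose interval excluded 0. That difference holds for the counted starts only. With the most upstream TSS the ratios were 0.667 (0.517 to 0.855) at Ccne1 and 0.778 (0.640 to 0.944) at Ccne2, with overlapping intervals, and the difference was not computed there. Thus 1 of 10 cyclins was lower and 0 of 10 higher, beside 4.9% and 0.665% of all tested promoters, and a single gene is too few to set this share apart from the background.

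Ccna2 and the B cyclins had more knockout than wild-type signal after TMM scaling, by less than 1.5-fold, a direction that turned in scaling to background reads. Ccna2 (chromosome 3, minus strand, TSS at 36470849) had 291 and 279 reads, or 57.6 and 48.4 RPM, giving a ratio of 1.19 (1.01 to 1.41). Ccnb1 (chromosome 13, minus strand, TSS at 101556357) had 253 and 266 reads, giving a ratio of 1.09 (0.910 to 1.29). Ccnb2 (chromosome 9, minus strand, TSS at 70269361) had 182 and 165 reads and the highest ratio of the 10 genes under TMM, at 1.26 (1.01 to 1.56). The difference between Ccnb1 and Ccnb2 was -0.21 on the log2 scale (-0.62 to 0.19).

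The transcription cyclins Ccnc and Ccnh are the pair outside the D, E, A and B classes. Ccnc (chromosome 4, plus strand, TSS at 21654914) had 319 and 310 reads, or 63.1 and 53.8 RPM, giving a ratio of 1.17 (1.0 to 1.38). Ccnh (chromosome 13, plus strand, TSS at 85329082) had 276 and 318 reads, or 54.6 and 55.1 RPM, giving a ratio of 0.991 (0.840 to 1.17). The difference between them was 0.25 on the log2 scale (-0.09 to 0.58).

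**Figure D1:**
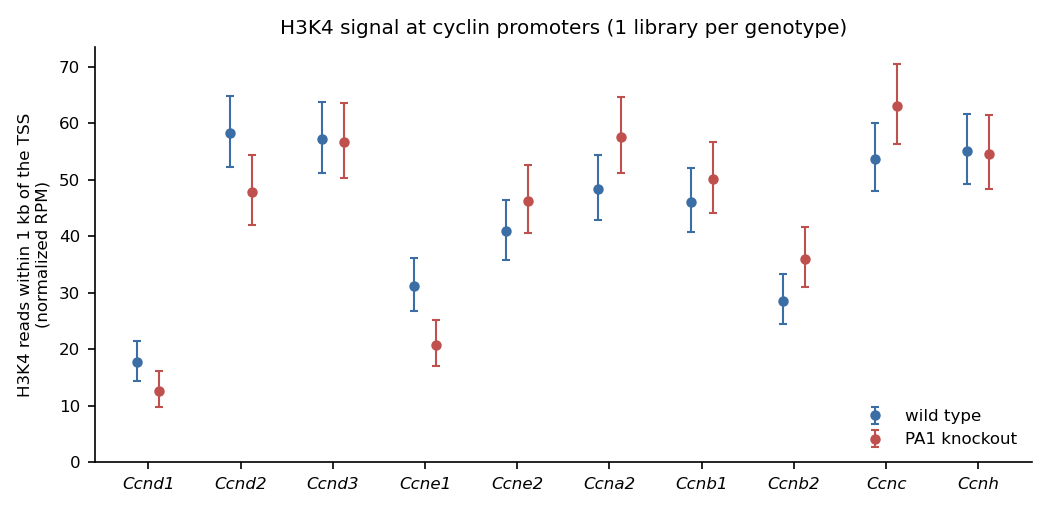
H3K4 signal within 1 kb of the TSS in normalized RPM at each of the 10 cyclin promoters, with points for the single wild-type and the single knockout library and bars for exact 95% Poisson counting intervals. Ccnd1 is lowest in both libraries (12.7 and 17.7 RPM), and the intervals of the 2 libraries are separate only at Ccne1.

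The order of the 10 levels differed between the libraries. In the wild type it ran from Ccnd2 through Ccnd3, Ccnh, Ccnc, Ccna2, Ccnb1 and Ccne2 to Ccne1, Ccnb2 and Ccnd1. Only the steps from Ccne2 to Ccne1 and from Ccnb2 to Ccnd1 exceeded counting error, and neighbours in the upper 7 ranks were within it. In the knockout it ran from Ccnc through Ccna2, Ccnd3, Ccnh, Ccnb1 and Ccnd2 to Ccne2, Ccnb2, Ccne1 and Ccnd1, and the last 3 steps exceeded counting error. Ccne1 and Ccnb2 thus changed places, within counting error of each other in the wild type and beyond it in the knockout (182 reads at Ccnb2 against 105 at Ccne1, 1.73-fold, 1.36 to 2.23). Against the other tested promoters the members were ordinary in level: 14.1% of promoters had fewer reads than Ccnd1 and 76.1% had fewer than Ccnc.

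Summed by class, the D cyclins had 592 knockout and 768 wild-type reads, giving a ratio of 0.880 (0.789 to 0.981). The E cyclins had 339 and 416 reads, giving a ratio of 0.930 (0.803 to 1.08), a sum of 2 genes with ratios on either side of 1. The A cyclin stood at 1.19 (1.01 to 1.41), the B cyclins at 1.15 (1.01 to 1.32; 435 and 431 reads) and the transcription cyclins at 1.08 (0.965 to 1.21; 595 and 628 reads), and these 3 ratios were below 1 in scaling to background reads, as was the last in scaling to total reads (0.998) and with a 500 bp window (0.962). The A and B intervals held 1 in several settings, among them total reads (0.929 to 1.30 and 0.928 to 1.22) and the 500 bp window (0.775 to 1.38 and 0.973 to 1.38). The D interval also held 1 at 500 bp (0.794 to 1.06). Differences between classes do not depend on the scaling to total or background reads, since the factor is shared. Of the 10 class pairs, 5 had a 95% interval that excluded 0, and no such share was computed for sums over other promoters. The D cyclins were lower than the A cyclin by -0.44 on the log2 scale (-0.73 to -0.15), than the B cyclins by -0.39 (-0.64 to -0.14) and than the transcription cyclins by -0.30 (-0.53 to -0.07). The E cyclins were lower than the A cyclin by -0.36 (-0.68 to -0.03) and than the B cyclins by -0.31 (-0.60 to -0.02). At 99.5%, the level that allows for 10 pairs, only D against A (-0.85 to -0.02) and D against B (-0.75 to -0.03) excluded 0. The D and E classes differed by -0.08 (-0.34 to 0.18). Over the 8 alternative settings that can move a difference between classes, D against B excluded 0 at 95% in 8 and D against A in 7, the exception being a window of 500 bp either side (-0.17, -0.64 to 0.30). Genes of a class are not replicates, so these intervals say nothing on the spread between genes. Gene by gene, Ccnd1 and Ccnd2 each lay below Ccna2, Ccnb1 and Ccnb2 with 95% intervals that excluded 0. Ccnd3 did not: its differences were -0.27 (-0.61 to 0.07) from Ccna2, -0.13 (-0.48 to 0.21) from Ccnb1 and -0.35 (-0.74 to 0.04) from Ccnb2.

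**Figure D2:**
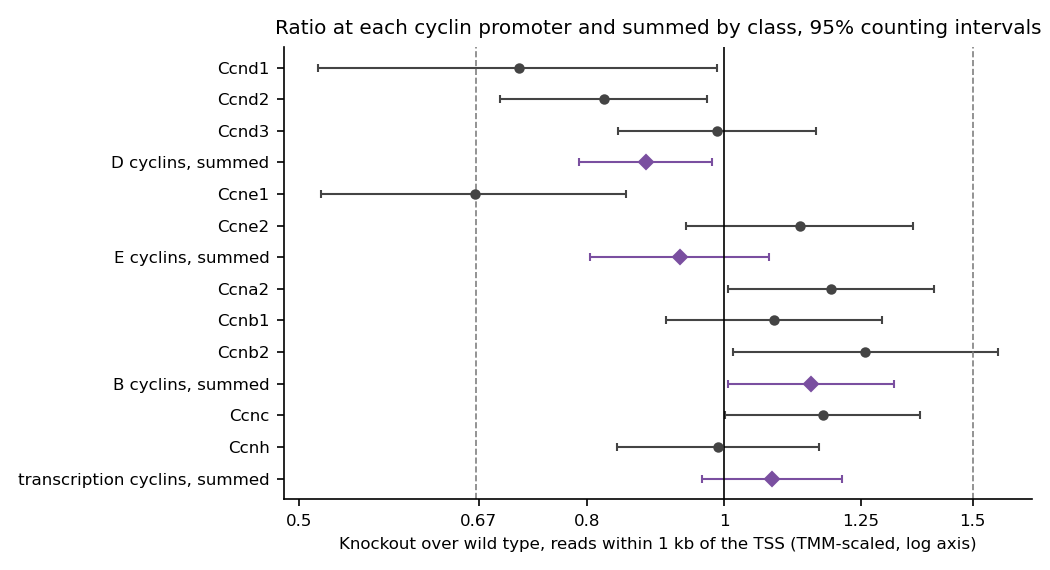
Ratio of knockout over wild-type reads within 1 kb of the TSS, on a log axis, for each cyclin (grey circles) and for classes of more than 1 gene summed (purple diamonds), with 95% counting intervals. The solid line is equality and the dashed lines are the 1.5-fold limits. Ccne1 (0.666) alone lies past a limit, and the A and B cyclins lie to the right of 1 under the TMM scaling used here but to its left when scaled to background reads.

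The ratios followed level and base composition over all promoters, and both differ between the cyclins. The median ratio over all tested promoters was 0.810 at 100 to 200 reads in the 2 libraries together, 0.946 at 200 to 400 and 1.03 at 400 to 800. The central 95% of promoters in those ranges had ratios of 0.481 to 1.49, 0.645 to 1.36 and 0.799 to 1.30. Every one of the 10 cyclins lay inside the central 95% for its own read count, Ccne1 (285 reads) close to the lower end of its range. The median was 1.09 at 45 to 55% GC, 0.999 at 55 to 65% and 0.921 at 65 to 75%. The 1 kb around the counted start holds 74.9% GC at Ccne1 and 46.9% at Ccne2. With both trends removed, the ratio of Ccne1 was 0.799 (0.622 to 1.02) and no cyclin passed the rule. D against A and D against B still excluded 0 after that removal.

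The direction at Ccne2 depended on the start site and on other settings. At the counted start its ratio was also below 1 with 2 kb either side (0.932), with the trends on GC and level removed (0.965) and in scaling to background reads (0.887). The 10 genes have 43 distinct annotated TSSs, 31 of them within 1 kb of the counted start, and 3 passed the rule, all of Ccne1. Those were its counted start and the starts 32 bp upstream and 594 bp downstream of it. Their windows overlap and share reads, so they are not separate observations. The share of all annotated TSSs past the rule was not computed. The counted Ccne2 start is that of the non-coding transcript Ccne2-006, inside the gene. The most upstream starts, those of Ccne2-003 and the coding Ccne2-201, lie 1246 and 1243 bp before it. There the windows had 180 knockout reads and 266 or 267 wild-type reads, with ratios of 0.772 (0.636 to 0.937) and 0.769 (0.633 to 0.933). The coding start Ccne2-001, 871 bp upstream of the counted one, gave 207 and 257 reads and 0.919 (0.762 to 1.11). With the most upstream TSS of every gene, the E class as a whole stood at 0.734 (0.630 to 0.854) and was lower than the D class, with D over E at 0.29 on the log2 scale (0.01 to 0.56).

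The bins of Ccne2 show where the windows part. Between 2200 and 2000 bp upstream of the counted start there were 21 knockout and 53 wild-type reads. In the kilobase downstream there were 81 and 56, a ratio of 1.65 (1.16 to 2.36) that counts as higher for that segment alone. Of the 11954 promoters with 20 or more reads in that segment, 160 were higher and 730 lower by the rule. From 5 to 1 kb upstream the Ccne2 counts were 129 and 198, a ratio of 0.744 (0.591 to 0.933). Over its whole marked domain of 3800 bp the gene had 355 and 431 reads, giving a ratio of 0.940 (0.815 to 1.08). These segments were read side by side after their values were known, and no correction for their number was made.

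**Figure D3:**
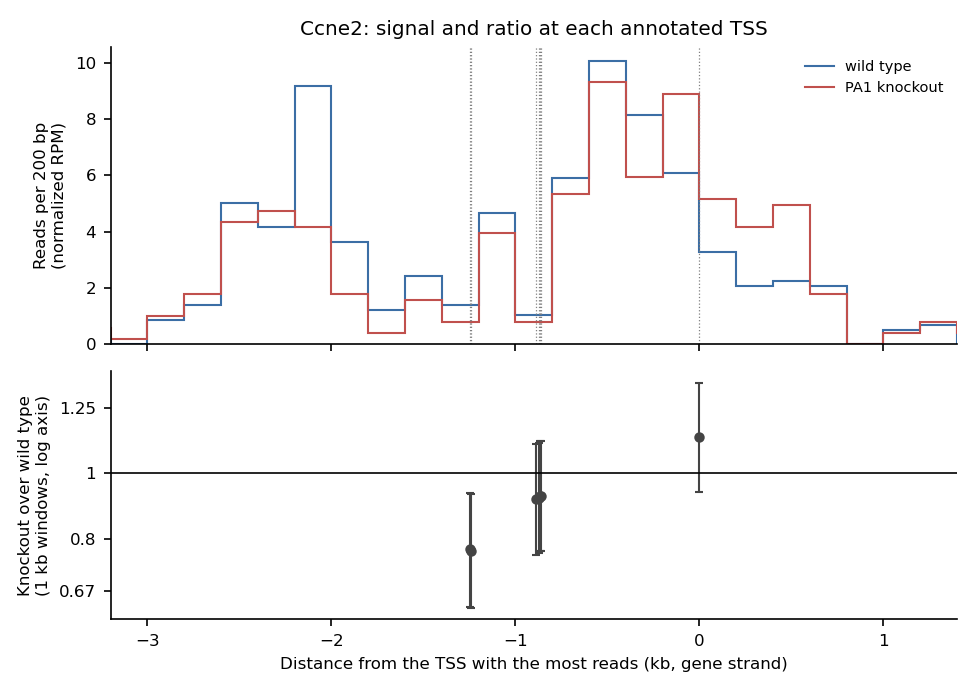
Above, reads per 200 bp bin in normalized RPM for both libraries around Ccne2, with dotted lines at its annotated TSSs. Below, the knockout over wild-type ratio in the 1 kb window around each of those TSSs, on a log axis with 95% counting intervals. The horizontal axis is distance from the counted TSS in kb, and the ratio moves from 0.772 at the most upstream start to 1.13 at the counted start.

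At the other members the start sites gave like ratios or too few reads to say. Windows of nearby starts overlap and hold many of the same reads, so their like ratios are not separate support. Ccne1-001 and Ccne1-003, the coding starts 32 bp upstream and 594 bp downstream of the counted one, gave 0.661 (0.513 to 0.849) and 0.620 (0.462 to 0.828). Ccnd1-001, the coding start of Ccnd1, lies 1672 bp upstream of the counted start of the retained-intron transcript Ccnd1-002, and had 32 and 53 reads with a ratio of 0.689 (0.430 to 1.09). Ccnd3 has a second coding start 88416 bp downstream with a peak of its own, 175 and 225 reads, at 0.888 (0.724 to 1.09). The starts of Ccna2, Ccnb1, Ccnc and Ccnh near the counted one stayed within 0.986 to 1.19. The distant internal starts of Ccne1, Ccna2, Ccnb1 and Ccnh held at most 7 reads in either library, and Ccnd2 and Ccnb2 each have 1 annotated start.

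The width of the marked domain ran in steps from broad to narrow over the members, with Ccnd2 and Ccnd3 the broadest. The enriched island over Ccnd2 was 5600 bp wide and that over Ccnd3 5400 bp, wider than 97.1% and 96.5% of the islands over protein-coding promoters, whose median was 2000 bp. The islands of Ccne2 (3800 bp), Ccna2 (3400 bp), Ccnb1 (3000 bp) and Ccne1 (2800 bp) were also above the median. Ccnb2 had 2200 bp, Ccnc 1800 bp and Ccnh 1600 bp, and Ccnd1 had the narrowest at 1000 bp, with 8.62% of promoters narrower. Island borders came from both libraries together. Over whole islands the lowest and highest ratios were those of the genes lowest and highest at the windows, from 0.680 (0.540 to 0.854) at Ccne1 to 1.31 (1.07 to 1.61) at Ccnb2.

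Other genes start within 5 kb of 2 members. The lincRNA gene 9330179D12Rik starts 1422 bp downstream of the Ccnd2 TSS on the opposite strand, within the Ccnd2 island. Taf8, which encodes a TFIID subunit, starts 2759 bp upstream of Ccnd3 on the opposite strand, and the bin with the most knockout reads around Ccnd3 (69 reads against 59 in the wild type, 3400 to 3200 bp upstream) lies beside that start. That peak is separate from the Ccnd3 island, which begins 799 bp upstream of the TSS. No other gene has an annotated TSS within 5 kb of the counted start of the remaining 8 members.

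**Figure D4:**
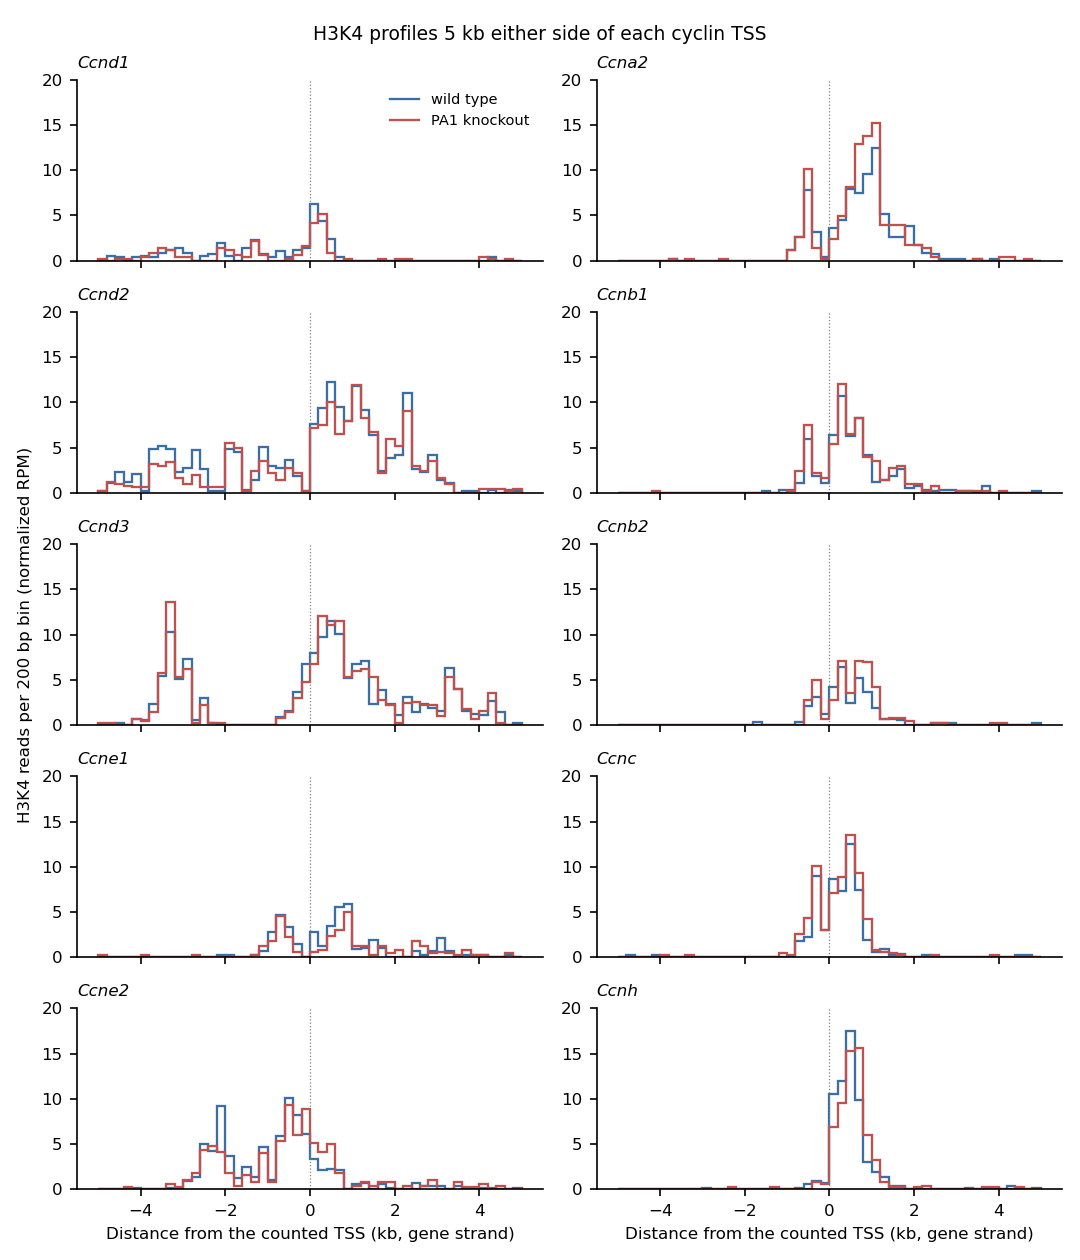
H3K4 reads per 200 bp bin in normalized RPM from 5 kb upstream to 5 kb downstream of each counted cyclin TSS on the gene strand, 1 line per library, all panels on the same scale. Ccnd2 and Ccnd3 are broad (islands of 5600 and 5400 bp), Ccnh lies almost wholly downstream of its TSS (2.94% of knockout reads upstream), and the isolated upstream peak of Ccnd3 lies beside Taf8.

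The signal lay on both sides of most counted starts. At Ccnh it was 1-sided: 2.94% of the knockout reads and 4.03% of the wild-type reads within 5 kb lay upstream. At Ccne2 most reads lay upstream of the counted start, 70.7% in the knockout and 81.8% in the wild type, and that start is internal to the gene. Inside the counted window of Ccnd2 the kilobase upstream had 44 and 66 reads (0.761, 0.507 to 1.13) and the kilobase downstream 198 and 270 (0.837, 0.693 to 1.01). Outside the window there were 186 and 292 reads from 5 to 1 kb upstream (0.727, 0.602 to 0.877) and 316 and 355 from 1 to 5 kb downstream (1.02, 0.870 to 1.19). Over all promoters with 20 or more reads in these outer segments the medians were 1.08 and 1.11. At Ccne1 the kilobase downstream had 59 and 109 reads (0.618, 0.442 to 0.856), which counts as lower for that segment. The kilobase upstream had 46 and 70 (0.750, 0.505 to 1.1), and the intervals overlapped. From 1 to 5 kb downstream Ccne1 had 56 and 57 reads (1.12, 0.761 to 1.65). Differences between these upstream and downstream segments of a gene were not tested.

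Downstream of the TSS the knockout signal sat further out than the wild-type signal at most cyclins and at most other promoters. At Ccnh the first 600 bp had 160 knockout and 231 wild-type reads (0.790, 0.642 to 0.971), and the next 600 bp had 125 and 85 (1.68, 1.26 to 2.24). The log2 difference between the 2 stretches was 1.08 (0.57 to 1.60). It was 0.71 (0.01 to 1.41) at Ccnb2 and 0.57 (0.03 to 1.12) at Ccna2. The difference was above 0 at 8 of the 10 cyclins, the exceptions being Ccnd1 and Ccne2. Its interval excluded 0 at the 3 genes just given, and the share of all promoters where it did so was not computed. The median over the cyclins was 0.33. Over the 9927 promoters with enough reads the median was 0.28, and 75.2% were above 0, so the cyclins share a shape seen across promoters. Summed over all tested promoters, the ratio was 0.869 in the first 200 bp downstream and 1.15 between 1000 and 1400 bp. The 2 stretches were chosen after the profiles had been seen.

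**Figure D5:**
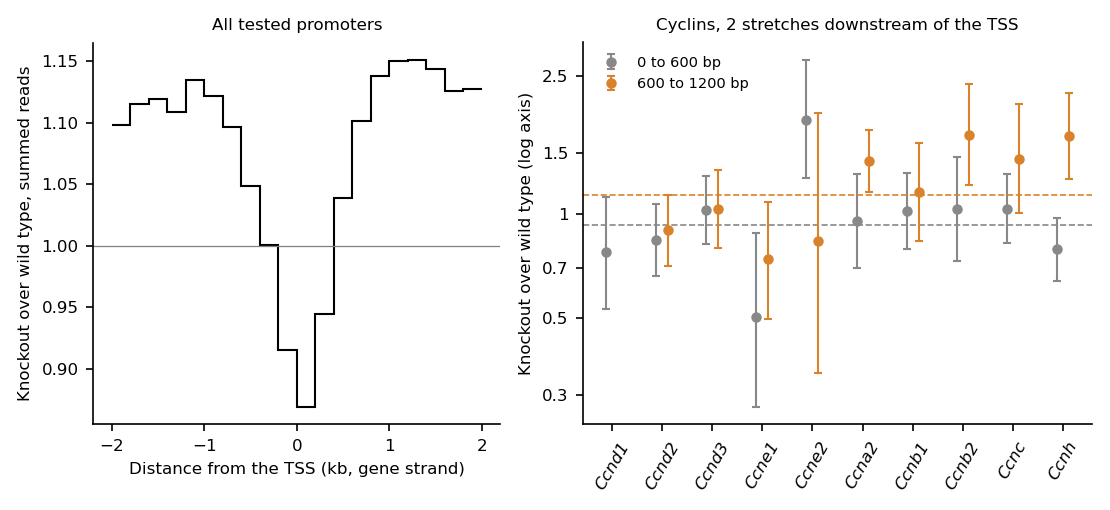
Left, knockout over wild-type ratio of reads summed over all tested promoters in 200 bp bins within 2 kb of the TSS (axis not from 0). Right, the ratio in the first 600 bp downstream (grey) and the next 600 bp (orange) at each cyclin on a log axis, with 95% counting intervals and dashed lines at the medians of all promoters, 0.927 and 1.13. The summed ratio is lowest just downstream of the TSS (0.869), and Ccnh shows the difference most clearly (0.790 and 1.68). The outer stretch of Ccnd1, with 3 reads in all, is not drawn.

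Of 65 partner genes tested over 6 lists, 0 passed the 1.5-fold rule in either direction, beside 0.665% of all promoters higher and 4.9% lower. Whether a count of 0 in 65 sets the lists apart from those shares was not tested. The spread of ratios over all promoters narrowed as read count rose, and the lists were not compared with promoters of like read count. Of 16 other cyclin genes 13 had enough reads, from Ccno, a cyclin of multiciliated cells, at 0.699 (68 and 111 reads) to Ccnl1, a cyclin of RNA splicing, at 1.27 (327 and 294 reads). The 3 without enough reads were Ccnk and the germline cyclins Ccna1 and Ccnb3, with at most 5 reads in either library. The list of 14 cyclin-dependent kinases and their cofactors also holds the Mediator subunits Med12 and Med13 and the CAK subunit Mnat1. Its lowest ratio was that of Cdk1, the mitotic partner of the B cyclins, at 0.876 (0.735 to 1.04), and its highest that of Cdk8, the partner of cyclin C, at 1.21 (1.01 to 1.44).

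Of 8 CDK inhibitors 6 had enough reads. Cdkn1a, which encodes p21, had 120 and 196 reads, giving a ratio of 0.699 (0.552 to 0.881), and Cdkn2c, which encodes p18, had 427 and 429 and 1.14 (0.991 to 1.30). In the list of 13 RB and E2F genes the ends were E2f3 at 0.771 (0.623 to 0.951) and Rb1 at 1.29 (1.08 to 1.54). Among the 5 CDK phosphatases and WEE kinases they were Wee1 at 0.862 and Cdc25c at 1.26. The 14 genes of cyclin degradation, which include ubiquitin ligase subunits and the CDK-binding protein Cks1b, ran from 0.943 at Cul1 to 1.29 at Cks1b. Median ratios were 1.04 over the 10 cyclins, 1.09 over the other cyclins, 1.0 over the kinases and cofactors, 1.01 over the inhibitors, 0.957 over the RB and E2F genes, 1.07 over the phosphatases and WEE kinases and 1.03 over the degradation genes. The median log2 ratio over all 12186 promoters was 0.00.

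Chromosome 7 holds both cyclins with the lowest ratios, Ccne1 and Ccnd1. It also held 55 positions where reads of the knockout library alone mismatched the reference, beside 1 for the wild-type library alone. Such imbalance was not limited to chromosome 7: chromosome 6, which holds Ccnd2, had 2 for the knockout and 47 for the wild type, chromosome 14 had 1 and 23, and chromosome 19 had 19 and 1. Such a position had 3 or more reads in each library, a mismatch in 3 or more reads and at least 80% of those of 1 library and in none of the other. Within 5 kb of every cyclin TSS there were 0 of them, and within 5 Mb there were 7 at Ccna2, 3 at Ccnd3, 1 at Ccne1 and 0 at the other 7 genes, all in the knockout. Over the chromosome the median log2 ratio was -0.02 and 4.38% of tested promoters were lower, near the 4.9% of the genome. Without Ccnd1 and Ccne1 the D class stood at 0.905 (0.806 to 1.02) and D against B at -0.35 (-0.61 to -0.09). The E class was then Ccne2 alone at 1.13, and its differences from the A and B classes no longer excluded 0. D against E then excluded 0 with D the lower (-0.32, -0.64 to -0.01), opposite in sign to the difference at the most upstream TSSs.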

How the data were processed

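Mapped read positions were taken from the deposited read lists, with 1 line per read and no position and strand repeated within a library. The submitters' processing notes name mm9 and SICER without roles. The aligner, duplicate handling and peak settings are not given in the sources used here. The values carry no depth normalization by the authors. Read 5′ ends were moved 75 bp and counted with Python 3.11.15 (numpy, scipy, pysam) on the mm9 assembly with GENCODE annotation, at the TSS of each gene with the most reads in both libraries together. TMM scaling trimmed 30% of ratios and 5% of levels. Intervals are exact conditional binomial (Clopper-Pearson). Islands joined 200 bp windows of both libraries with a Poisson p under 1e-05 across gaps of up to 200 bp, with 20 or more reads in all. The libraries were amplified over 18 PCR cycles and sequenced for 36 cycles. Since no position and strand is repeated, each gives at most 1 read per library, which sets a ceiling on counts at strongly marked promoters. Whether the reads are independent molecules was not tested. The scaling, intervals and rule were tried on simulated Poisson counts. Those had no trend on level or GC and no variation between libraries beyond counting, so the trial does not cover such effects. The 10 cyclins and the gene lists were chosen with earlier results of these data known. All 10 members are named, and of each other list the genes with the highest and lowest ratio among those with 50 or more reads and any past the rule. Motifs, level and GC ranges, mismatched positions and the near and far stretches were added after the data were seen. A further marker gene is not reported here.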

Additional observations from a re-analysis of the deposited data

How the results depend on the processing

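The 10 alternative settings and a restriction to starts of coding transcripts, chosen after seeing the data, were run for every cyclin and class. Ccne1 was below 1 in all 11 (0.522 to 0.799) and past the rule in 6. No cyclin was lower by the rule with 500 bp either side, 2 kb either side, no fragment shift, a 20 read minimum or the GC and level trends removed (0 cyclins in each). Scaling moved most values: the median log2 ratio of all promoters shifted to -0.11 with total reads and -0.35 with background reads, and values under these settings are to be read against that shift. With total reads 40 promoters were higher, 948 lower, and 2 cyclins lower. With background reads 14 promoters were higher, 2410 lower and 3 cyclins lower, with class ratios of 0.690 (D), 0.729 (E), 0.933 (A), 0.903 (B) and 0.848 (transcription cyclins). At 500 bp, 141 promoters were higher and the transcription cyclins stood at 0.962. With trends removed, 155 promoters were higher and 160 lower. The most upstream TSS put the E class at 0.734, and leaving out the chromosome 7 members, also chosen after seeing the data, at 1.13, since it removes Ccne1. Elsewhere the cause was not tested. No class ratio turned to the other side of 1 in a setting other than background scaling, total reads and 500 bp for the transcription cyclins, and the E class without Ccne1. No paired analysis was possible because each genotype has 1 library. Depth limits the precision most at Ccnd1, whose 166 reads leave an interval of 0.515 to 0.988.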
